A study of Mus musculus with 9 samples.

Results

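Collagen genes were examined across colon tissue of 9 mice, as the 44 rows of the count table that carry an Ensembl mouse identifier and a symbol of the form Col, number, a, number, out of 27719 genes and loci in all. C57BL/6J mice of 3 groups were compared, with 3 mice and 1 library per mouse in each. Control mice drank distilled water. DSS mice drank 2.5% dextran sodium sulfate (DSS), a polymer that injures the colon epithelium, for 7 days. DSS + EA mice drank the same 2.5% DSS for 7 days and, after 5 days of modeling, received electroacupuncture (EA), a weak current passed through needles, at the ST36 acupoint on both sides once a day for 5 days (30 minutes, 2 Hz, 0.2 mA). According to the study's methods, mice of the other groups were held for the same time without EA. Age was not given in the sources used here. Full-length cDNA of total RNA was PCR-amplified and read on an Oxford Nanopore instrument, and between 2627695 and 4235576 reads per mouse were counted on genes.

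Collagens are the proteins that form the fibrils, sheets and filaments between cells. Chains wind around each other in sets of 3 into a helix, which is folded and modified in the cell, trimmed and cross-linked outside it, and cut by matrix metalloproteinases when tissue is remodelled. In the gut, fibroblasts make most of the fibrillar collagens (types I, III and V), many cell types lay down the basement membrane network of type IV collagen, and types XV and XVIII, the multiplexins, lie at basement membranes of vessels, muscle and epithelium.

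Reads were counted on 40 of the 44 genes, and Col9a1, Col10a1, Col19a1 and Col26a1 had 0 counts in all 9 mice. A gene was tested when enough libraries held enough counts for edgeR's filter (filterByExpr by group), which 21 of the 44 genes passed. A gene can pass on its counts in the DSS mice alone, so numbers over the 21 genes describe those that passed and not all collagen genes. A gene was called higher or lower when its Benjamini-Hochberg adjusted p, over all 12566 genes tested by edgeR's quasi-likelihood test, was under 0.05. Levels are given as CPM, counts scaled to 1 common library total after TMM adjustment, and 3 counts corresponded to between 0.708 and 1.14 CPM. Between groups of 3 mice the smallest exact permutation p is 0.1, so p-values come from the edgeR fit across all genes. In bulk tissue, fewer cells of a type and less RNA per cell cannot be told apart.

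Promoters of 35 of the 44 genes were found in RefSeq (GRCm38.p6). Of the 17 genes higher with DSS, 14 had 16 promoters between them, which allows a look at what genes that moved together share in sequence. Of the 7 fibrillar genes among them, 4 have a promoter window without an annotated exon, and their 250 bases before the start site are shown 5′ to 3′ on the strand of the gene. Capitals mark the GC box (GGGCGG), the CCAAT box (CCAAT) and the TATA box (TATAAA) read on either strand. The windows are chr1:45311288-45311537 (plus strand) for Col3a1, chr2:27886175-27886424 (plus strand) for Col5a1, chr9:20815068-20815317 (minus strand) for Col5a3 and chr4:63215162-63215411 (plus strand) for Col27a1.
Col3a1: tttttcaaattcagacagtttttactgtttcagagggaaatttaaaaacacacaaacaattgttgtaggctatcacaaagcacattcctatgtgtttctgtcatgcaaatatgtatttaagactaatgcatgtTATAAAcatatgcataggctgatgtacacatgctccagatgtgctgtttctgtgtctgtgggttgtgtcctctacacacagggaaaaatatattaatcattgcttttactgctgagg
Col5a1: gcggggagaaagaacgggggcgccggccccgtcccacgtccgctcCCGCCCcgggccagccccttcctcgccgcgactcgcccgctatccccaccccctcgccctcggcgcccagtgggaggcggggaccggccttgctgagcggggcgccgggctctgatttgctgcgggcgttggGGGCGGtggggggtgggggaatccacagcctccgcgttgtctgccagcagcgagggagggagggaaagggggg
Col5a3: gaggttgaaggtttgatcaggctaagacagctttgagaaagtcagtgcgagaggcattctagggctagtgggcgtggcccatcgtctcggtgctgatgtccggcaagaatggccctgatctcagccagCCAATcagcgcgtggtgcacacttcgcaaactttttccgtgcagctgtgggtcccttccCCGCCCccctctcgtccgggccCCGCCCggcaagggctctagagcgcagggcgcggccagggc
Col27a1: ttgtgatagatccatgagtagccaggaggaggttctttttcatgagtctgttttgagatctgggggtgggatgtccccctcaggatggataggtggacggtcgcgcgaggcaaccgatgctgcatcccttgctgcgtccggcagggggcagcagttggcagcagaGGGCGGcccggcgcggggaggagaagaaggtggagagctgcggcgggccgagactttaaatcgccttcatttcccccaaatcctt
The Col5a1 window holds 2 GC boxes, at -205 to -200 and -73 to -68 from the start site. The Col5a3 window also holds 2, at -63 to -58 and -41 to -36, and a CCAAT box at -122 to -118. A single GC box lies at -85 to -80 in the Col27a1 window. The Col3a1 window holds no GC box and 1 TATA box, at -117 to -112. A GC box was present in 10 of the 16 promoters of genes higher with DSS (62.5%), against 32.7% of all 32851 promoters of the same length. The windows of Col4a5, Col6a4 and Col8a1, tested and not called with DSS, hold a GC box as well. So do those of several untested collagen genes, such as Col11a1 and Col8a2, so the GC box is not particular to the genes higher with DSS. The CCAAT box was present in 37.5% of the 16 and 33.8% of all, and the TATA box in 6.25% and 12.4%. The AP-1 site TGANTCA was found in 6.25% and 6.75%, and the SMAD box CAGACA in 25% and 17.1%. None of the 5 motifs contains another, and these shares are a description without a test.

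Between the DSS and control groups, 17 of the 21 collagen genes tested, and of the 44 in all, were higher with DSS and 0 were lower (edgeR, 17 higher and 0 lower also at an unadjusted p under 0.05; DESeq2, 16 and 0). Among all 12566 genes tested, 21.5% were higher and 19.5% lower at the same threshold. The median log2 fold change of the 21 genes was 1.57, beside 0.02 for all genes tested. The 17 genes are 7 of 7 tested fibrillar collagens, 2 of 3 basement membrane, 3 of 4 beaded filament, 2 of 3 fibril-associated, 2 of 2 multiplexin and 1 of 1 transmembrane collagens, and 0 of 1 short-chain or other collagen. The other 4 tested genes, Col4a5, Col6a4, Col8a1 and Col14a1, were not called. At the thresholds in the study's methods, a log2 fold change beyond 2.5 and an unadjusted p under 0.01, 6 collagen genes (Col3a1, Col4a1, Col4a2, Col5a1, Col5a2 and Col18a1) were higher, where 6.62% of all genes tested passed.

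Between the DSS + EA and DSS groups, 14 of the 21 tested genes were lower with EA and 0 were higher (edgeR, 16 and 0 at an unadjusted p under 0.05; DESeq2, 13 and 0). Of all genes tested, 18.3% were lower and 17.2% higher. The median log2 fold change was -1.12, beside -0.02 for all genes tested. None of the 21 passed the thresholds of the study's methods, which 3.50% of all genes tested passed in the lower direction. The DSS mice are the same in both comparisons, so a high DSS value enters each of them. Between the DSS + EA and control groups, 6 genes were higher (Col1a1, Col1a2, Col4a1, Col5a1, Col5a2 and Col18a1) and 0 lower (edgeR, 10 and 1 at an unadjusted p under 0.05; DESeq2, 7 and 0), where 3.00% of all genes tested were higher and 0.637% lower. That count fell to 2 without control mouse 1, without control mouse 2 or without DSS + EA mouse 3. Col18a1 kept its call whichever mouse was left out, while Col1a2 lost it without control mouse 1, Col1a1 without control mouse 2 or DSS + EA mouse 3, Col5a1 without control mouse 1 or 2 or DSS + EA mouse 3, and Col5a2 without any 1 control or DSS + EA mouse.

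**Figure D1:**
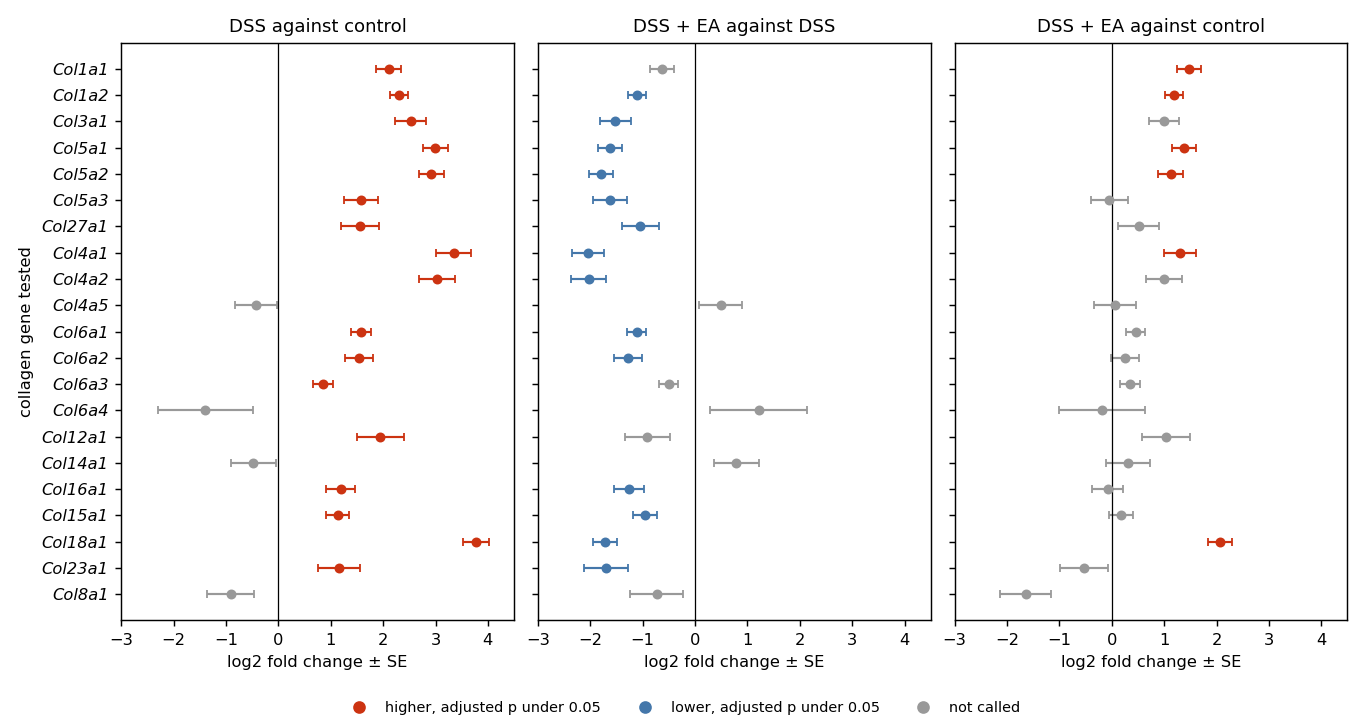
Log2 fold change (horizontal axis, with its standard error as bar) of the 21 collagen genes tested in each of the 3 comparisons, red where called higher, blue where called lower and grey where not called. With DSS, 17 points lie above 0 and are red, and with EA against DSS 14 are blue and none is red.

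The libraries of DSS + EA mice 2 and 3 stand apart in their content of pancreatic enzyme RNA. The 10 pancreatic acinar markers, such as the trypsinogen gene Prss2, summed to 31221 and 15744 CPM in these mice and to 579 CPM in DSS + EA mouse 1. The control mice held between 370 and 955 CPM and the DSS mice between 42.7 and 100.2 CPM. Prss2 itself was counted 13882 and 8470 times in DSS + EA mice 2 and 3. DSS + EA mouse 1 held 241 counts of Prss2, 256 of Cela2a and 246 of Amy2a5. Each of these genes had at most 2 counts in any control or DSS mouse. The control sums were mostly Clps and Cela1, at 696 and 260 CPM in control mouse 2. DSS + EA mouse 1 was therefore not free of acinar RNA, although its sum lay among those of the control mice. The summed collagen level was 1384 and 1527 CPM in DSS + EA mice 2 and 3 and 1487 CPM in DSS + EA mouse 1. Without DSS + EA mice 2 and 3, the count of collagen genes lower with EA was 4 in place of 14 (Col4a1, Col5a1, Col5a2 and Col18a1), with 1 mouse left in the group and its spread taken from the other groups. The 10 genes that lost their call had log2 fold changes of -1.93 to -1.05 in that fit, beside -2.03 to -0.96 with all mice. In that fit 302 of all genes were lower in place of 2295, and 0 collagen genes were higher than in control mice, where the 6 genes called with all mice had log2 fold changes of 0.92 to 1.74, beside 1.12 to 2.06.

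The fibrillar collagens, which build the load-bearing fibrils, held 66.6 ± 1.63% of all collagen counts in control (SD, n = 3), 70.2 ± 8.76% in DSS and 71.6 ± 3.80% in DSS + EA mice. Type III collagen, made of 3 chains of Col3a1, had the highest level of all in each group, also per kilobase. Col3a1 was at 351, 371 and 391 CPM in the control mice, at 1296, 1954 and 3149 CPM in the DSS mice and at 821, 624 and 782 CPM in the DSS + EA mice. Every DSS mouse lay above every mouse of the other groups, the DSS mice differed from each other by more than the mice of either other group, and the DSS + EA mice lay above all control mice. The log2 fold change with DSS was 2.52 (SE 0.30, adjusted p = 0.00027) and that of DSS + EA against DSS was -1.52 (SE 0.29, adjusted p = 0.00423). DSS + EA against control gave 1.00 (SE 0.29, adjusted p = 0.101), which is not a call, but became one in the fit of only DSS + EA and control mice (adjusted p = 0.00436), with DESeq2 (adjusted p = 0.0418) and without DSS mouse 1 or 3, over a range of 0.00436 to 0.556 among the alternatives. Col3a1 has an annotated exon on the same strand as part of its own, in the gene Gm47302, between which reads could have been divided.

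Type I collagen, the main collagen of scar tissue, is built from chains of Col1a1 and Col1a2. Col1a2 was at 68.6, 67.3 and 61.6 CPM in control, 272, 339 and 366 CPM in DSS and 142, 145 and 163 CPM in DSS + EA mice. The 3 groups did not overlap and the DSS + EA mice lay between the other groups. Its log2 fold changes were 2.30 with DSS (SE 0.18, adjusted p = 3.18e-05), -1.11 for DSS + EA against DSS (SE 0.17, adjusted p = 0.00149) and 1.19 for DSS + EA against control (SE 0.17, adjusted p = 0.00687). Col1a1 was at 31.3, 20.8 and 19.4 CPM in control, 101, 126 and 83.0 CPM in DSS and 67.6, 63.0 and 68.9 CPM in DSS + EA mice. Again no group overlapped another. It rose with DSS by 2.11 on the log2 scale (SE 0.24, adjusted p = 0.0002). The difference between DSS + EA and DSS, -0.64 (SE 0.23), had an adjusted p of 0.0531, between 0.0336 (without DSS mouse 3) and 0.36 (without DSS + EA mice 2 and 3) over the alternatives, and is not a call. Against control, Col1a1 was higher in the DSS + EA mice by 1.47 (SE 0.24, adjusted p = 0.00997).

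Type V collagen chains (Col5a1, Col5a2, Col5a3) join type I and III fibrils and set their width. Col5a1 was at 13.6, 12.2 and 8.36 CPM in control, 98.6, 94.6 and 82.4 CPM in DSS and 24.5, 30.0 and 35.2 CPM in DSS + EA mice. The DSS values were close to each other and far from both other groups. The DSS mice were higher than control by 3.00 on the log2 scale (SE 0.24, adjusted p = 3.71e-05), or 7.98-fold, and the DSS + EA mice lower than DSS by 3.07-fold (log2 fold change -1.62, SE 0.23, adjusted p = 0.00101). Col5a2 was at 25.5, 24.7 and 20.9 CPM in control, 126, 217 and 198 CPM in DSS and 45.6, 57.4 and 52.2 CPM in DSS + EA mice. It moved by 2.92 with DSS (SE 0.24, adjusted p = 4.2e-05) and by -1.80 between DSS + EA and DSS (SE 0.23, adjusted p = 0.000688). Both genes remained above control in the DSS + EA mice, Col5a1 by 1.38 (SE 0.24, adjusted p = 0.0132) and Col5a2 by 1.12 (SE 0.23, adjusted p = 0.0285). Antisense genes overlap exons of Col5a1, and whether strand was used in counting was not given in the sources used here.

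Col5a3, a less abundant chain of type V, was at 3.53, 4.29 and 2.66 CPM in control, 9.57, 13.6 and 8.36 CPM in DSS and 2.72, 4.07 and 3.46 CPM in DSS + EA mice. The DSS + EA mice lay among the control mice. The log2 fold changes were 1.58 with DSS (SE 0.32, adjusted p = 0.004) and -1.63 for DSS + EA against DSS (SE 0.33, adjusted p = 0.00492). Col27a1, a fibrillar collagen known from cartilage, was at 6.81, 2.97 and 2.66 CPM in control, 10.9, 11.4 and 15.8 CPM in DSS and 6.04, 7.04 and 5.35 CPM in DSS + EA mice. It was higher with DSS by 1.56 (SE 0.37, adjusted p = 0.00816). Between DSS + EA and DSS, Col27a1 was called lower (-1.04, SE 0.36, adjusted p = 0.0461). That call was lost with DESeq2, with the replicate block and without the filter on low counts. It was also lost without control mouse 2 or 3, without DSS mouse 2 or 3 and without any 1 of the DSS + EA mice. Adjusted p lay between 0.0508 and 0.133 in those fits. The other 4 fibrillar genes were not tested. Col11a1 had 2, 0 and 1 counts in control, 4, 8 and 8 in DSS and 1, 2 and 1 in DSS + EA mice. Col11a2 had 1, 3 and 1, 6, 7 and 5, and 0, 0 and 3 counts in the same order of groups. For Col24a1 no mouse held more than 6 counts, and Col2a1, the collagen of cartilage, had 1 count in all.

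**Figure D2:**
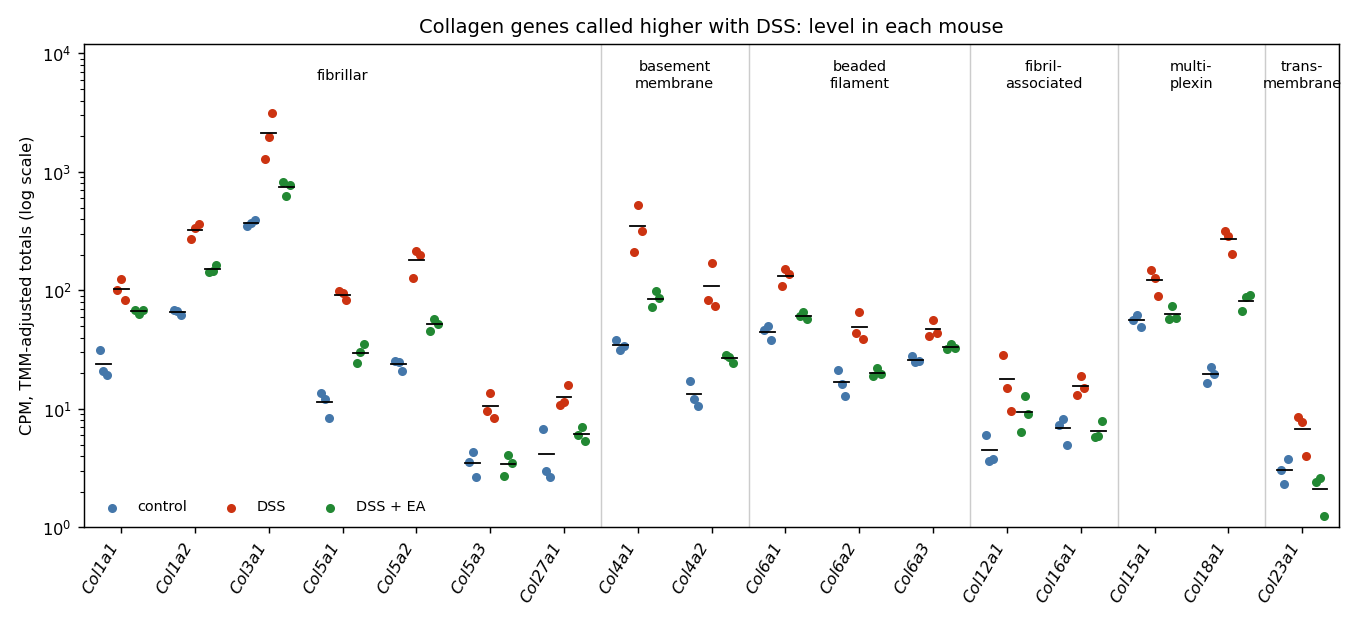
Level in CPM (log scale) of the 17 collagen genes called higher with DSS, 1 point per mouse and a line at the mean of 3 mice, in control (blue), DSS (red) and DSS + EA (green) mice. Col3a1 is highest in every group, and the DSS mice of Col18a1 sit between 205 and 314 CPM, above all control mice (16.6 to 22.4 CPM).

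Type IV collagen forms the sheet of the basement membrane, and its common form holds chains of Col4a1 and Col4a2. Col4a1 was at 38.3, 31.3 and 34.2 CPM in control, 212, 529 and 315 CPM in DSS and 71.9, 98.2 and 85.6 CPM in DSS + EA mice. DSS mouse 2 was the highest, and the groups did not overlap. The log2 fold changes were 3.34 with DSS (SE 0.33, adjusted p = 9.81e-05), or 10.2-fold, and -2.05 for DSS + EA against DSS (SE 0.31, adjusted p = 0.00139). The call of DSS + EA against control (1.30, SE 0.31, adjusted p = 0.0498) lay at the threshold and was lost with library totals only, with a mean of at least 20 counts, with the replicate block, without any 1 control or DSS + EA mouse or without DSS mouse 3, with adjusted p between 0.0561 and 0.177 in those fits. Col4a2 was at 17.1, 12.2 and 10.6 CPM in control, 83.0, 171 and 74.3 CPM in DSS and 28.7, 27.4 and 24.2 CPM in DSS + EA mice. It rose with DSS by 3.02 (SE 0.35, adjusted p = 0.000212) and fell by 2.03 between DSS and DSS + EA (SE 0.33, adjusted p = 0.00196). DSS mouse 2 was again the highest. DSS + EA against control gave 0.99 (SE 0.34, adjusted p = 0.167), a call in the fit of only DSS + EA and control mice (adjusted p = 0.0232) and without DSS mouse 2 (adjusted p = 0.0424).

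In GENCODE M21 (GRCm38), Col4a1 lies on chromosome 8 from 11198423 to 11312826 on the minus strand and Col4a2 from 11312805 to 11449287 on the plus strand. The pair starts head to head and overlaps by 22 bases at the start sites. Without strand, a read in that overlap could be counted on either gene. Col4a3 and Col4a4, a pair of the same layout on chromosome 1 with 71 bases between them, had at most 2 counts in any mouse and were not tested. The X-linked pair Col4a5 and Col4a6 lies 1308 bases apart. Col4a5 had 12, 12 and 12 counts in control, 9, 13 and 9 in DSS and 15, 5 and 17 in DSS + EA mice and was not called (log2 fold change with DSS -0.43, adjusted p = 0.426). Col4a6 had between 2 and 7 counts in every mouse.

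Type VI collagen makes beaded filaments close to cells, from Col6a1, Col6a2 and 1 longer chain such as Col6a3. Col6a1 was at 46.4, 49.8 and 38 CPM in control, 109, 152 and 138 CPM in DSS and 61.3, 65.2 and 57.6 CPM in DSS + EA mice. Its log2 fold changes were 1.57 with DSS (SE 0.19, adjusted p = 0.000285) and -1.12 for DSS + EA against DSS (SE 0.19, adjusted p = 0.0023). The DSS + EA mice lay above all control mice, by 0.45 (SE 0.19) with an adjusted p of 0.258, which is not a call. Col6a2 was at 21.4, 16.2 and 12.9 CPM in control, 43.4, 66.0 and 38.7 CPM in DSS and 19.0, 22.2 and 19.5 CPM in DSS + EA mice. It moved by 1.54 with DSS (SE 0.27, adjusted p = 0.0017) and by -1.29 between DSS + EA and DSS (SE 0.27, adjusted p = 0.0057). The DSS + EA mice overlapped the control mice.

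Col6a3 moved least of the 17 genes. It was at 28, 24.7 and 25.5 CPM in control, 40.9, 56.5 and 44.0 CPM in DSS and 31.7, 35.2 and 32.7 CPM in DSS + EA mice. The rise with DSS was 0.85 (SE 0.19, adjusted p = 0.00612). The value of DSS + EA against DSS, -0.51 (SE 0.19), had an adjusted p of 0.0599, between 0.0308 and 0.307 over the alternatives, and is not a call although the groups do not overlap. Col6a4, which lies in a row with Col6a5 and Col6a6 on chromosome 9, had 17, 4 and 11 counts in control, 11, 2 and 0 in DSS and 16, 5 and 6 in DSS + EA mice and was not called. Col6a5 had at most 9 counts in any mouse and was not tested, nor was Col6a6.

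Fibril-associated collagens sit on the surface of fibrils. Col12a1 was at 6.05, 3.63 and 3.80 CPM in control, 28.7, 15.1 and 9.60 CPM in DSS and 6.34, 13.0 and 9.13 CPM in DSS + EA mice. It rose with DSS by 1.95 (SE 0.45, adjusted p = 0.00733). DSS and DSS + EA mice overlapped (log2 fold change -0.91, SE 0.42, adjusted p = 0.118), and the gene was called lower with EA without DSS mouse 3 (adjusted p = 0.0403). Col16a1 was at 7.31, 8.25 and 4.94 CPM in control, 13.1, 19.0 and 14.9 CPM in DSS and 5.74, 5.93 and 7.87 CPM in DSS + EA mice. It rose by 1.19 with DSS (SE 0.28, adjusted p = 0.00787) and fell by 1.26 between DSS and DSS + EA (SE 0.28, adjusted p = 0.00799), to the range of the control mice. Col14a1, a relative of Col12a1, had 20, 14 and 22 counts in control, 15, 11 and 19 in DSS and 29, 12 and 28 in DSS + EA mice, with no call in any comparison. The others of this class, Col9a1, Col9a2, Col9a3, Col19a1, Col20a1 and Col22a1, were not tested. Col20a1 had the most counts of them, 11, 12 and 3 in the DSS mice against 2, 2 and 6 in control and 1, 2 and 0 in DSS + EA mice.

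The multiplexin pair moved by unequal amounts. Col18a1, whose C-terminal fragment is endostatin, was at 16.6, 22.4 and 19.8 CPM in control, 314, 289 and 205 CPM in DSS and 66.4, 87.8 and 91.6 CPM in DSS + EA mice. Its rise with DSS, 3.78 on the log2 scale or 13.7-fold (SE 0.25, adjusted p = 1.57e-05), was the largest of the 21 genes, ahead of Col4a1, with no test of the difference between genes. It fell by 1.72 between DSS and DSS + EA (SE 0.22, adjusted p = 0.000754) and was 4.18-fold above control in the DSS + EA mice (log2 fold change 2.06, SE 0.23, adjusted p = 0.0026). Col15a1, the closest relative of Col18a1, was at 55.7, 62.3 and 49.0 CPM in control, 150, 127 and 89.8 CPM in DSS and 57.1, 73.3 and 58.9 CPM in DSS + EA mice. It rose by 1.13 with DSS (SE 0.22, adjusted p = 0.00331) and fell by 0.96 between DSS and DSS + EA (SE 0.22, adjusted p = 0.0096). The DSS + EA mice overlapped the control mice. For both genes DSS mouse 1 was the highest, unlike for Col3a1 and Col4a1.

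Of the transmembrane collagens, which are anchored in the cell surface, Col23a1 was tested. It was at 3.03, 2.31 and 3.80 CPM in control, 8.62, 7.76 and 4.02 CPM in DSS and 2.42, 2.59 and 1.26 CPM in DSS + EA mice. The lowest DSS mouse lay just above the highest control mouse. Its call with DSS (1.16, SE 0.40, adjusted p = 0.0399) was lost with DESeq2 (adjusted p = 0.0962), with the replicate block (adjusted p = 0.0699), without the filter on low counts, with only both groups in the fit, without any 1 control mouse, without DSS mouse 1 or 2 and without DSS + EA mouse 1 or 2, over a range of 0.0529 to 0.148 among the fits that lost it. It fell by 1.70 between DSS and DSS + EA (SE 0.42, adjusted p = 0.0123), a call lost without DSS + EA mouse 3 (adjusted p = 0.0534). Col13a1, another of this class, had 8, 3 and 4 counts in control, 12, 34 and 7 in DSS and 2, 8 and 7 in DSS + EA mice and did not pass the filter. Col17a1, the collagen of skin hemidesmosomes, had 1, 0 and 0 counts in control, 0 in the DSS mice and 0, 0 and 3 in the DSS + EA mice. Col25a1 had at most 2 counts in any mouse.

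Col8a1, a short-chain collagen of vessel walls, had 30, 9 and 18 counts in control, 5, 20 and 10 in DSS and 7, 4 and 6 in DSS + EA mice. Its log2 fold change of DSS + EA against control, -1.64, was the only one of the 21 under 0 at an unadjusted p under 0.05 (adjusted p = 0.107). Col7a1, the anchoring fibril collagen, had 0, 3 and 2 counts in control, 9, 10 and 4 in DSS and 1, 5 and 0 in DSS + EA mice. Col28a1 had 5, 3 and 4, 10, 8 and 6, and 1, 4 and 3 counts in the same order. In both genes every DSS mouse held more counts, not adjusted for library size, than any control mouse, and neither gene was tested. Col8a2 had at most 3 counts in any mouse.

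Levels of different genes were compared as CPM per kilobase of the longest coding transcript in GENCODE M21, which was between 4100 and 11511 bases for the 21 genes. Long chains may be undercounted if reads stop short, and where 1 read stands for 1 molecule the division lowers them further. The order of genes therefore depends on the scale. In plain CPM, Col4a1 (352 ± 161) lay above Col1a2 (325 ± 48.3) in DSS mice, within their spread. In DSS + EA mice Col4a1 (85.2 ± 13.2 CPM) lay above Col6a1 (61.4 ± 3.80 CPM). In control mice Col3a1 was at 66.7 ± 3.59 CPM per kilobase (SD, n = 3), Col1a2 at 12.3 ± 0.695, Col6a1 at 10.9 ± 1.48 and Col15a1 at 10.8 ± 1.29, of which the last 2 do not differ beyond their spread. In DSS mice Col3a1 was at 383 ± 169, Col1a2 at 60.8 ± 9.02, Col4a1 at 53.2 ± 24.4 and Col18a1 at 48.1 ± 10.3 CPM per kilobase, and the last 3 of these levels lie within their spread of each other. In DSS + EA mice Col3a1 was at 133 ± 18.7, Col1a2 at 28.1 ± 2.14, Col6a1 at 15.0 ± 0.928 and Col18a1 at 14.6 ± 2.42. Col18a1 thus stood at 3.51 ± 0.518 in control mice, below Col15a1, and above it in both groups given DSS.

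All 44 genes together took 0.0758 ± 0.0054% of the counts in control mice (SD, n = 3), 0.413 ± 0.107% in DSS mice and 0.143 ± 0.0105% in DSS + EA mice. The groups did not overlap. Col3a1 made up 49.0 ± 3.53% of the collagen counts in control, 51.7 ± 11.4% in DSS and 50.5 ± 5.10% in DSS + EA mice, which differ by less than the spread between mice. The share of the beaded filament class was 12.1 ± 1.18% in control, 5.96 ± 1.18% in DSS and 8.16 ± 0.82% in DSS + EA mice.

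Ratios of counts between chains within each mouse do not depend on library size. The ratio of Col18a1 to Col15a1 was 0.30, 0.36 and 0.40 in control, 2.10, 2.27 and 2.28 in DSS and 1.16, 1.2 and 1.56 in DSS + EA mice, without overlap between groups. The ratio of Col6a1 to Col6a3 was 1.66, 2.01 and 1.49 in control, 2.67, 2.68 and 3.15 in DSS and 1.93, 1.85 and 1.76 in DSS + EA mice, so that the DSS mice lay above both other groups. The ratio of Col1a1 to Col1a2 was 0.46, 0.31 and 0.31 in control, 0.37, 0.37 and 0.23 in DSS and 0.48, 0.43 and 0.42 in DSS + EA mice, so that every DSS + EA mouse lay above every DSS mouse and the control mice overlapped both. The ratio of Col4a1 to Col4a2 lay between 2.24 and 4.24 over all 9 mice, and all 3 groups overlapped. These ratios are descriptions without a test.

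**Figure D3:**
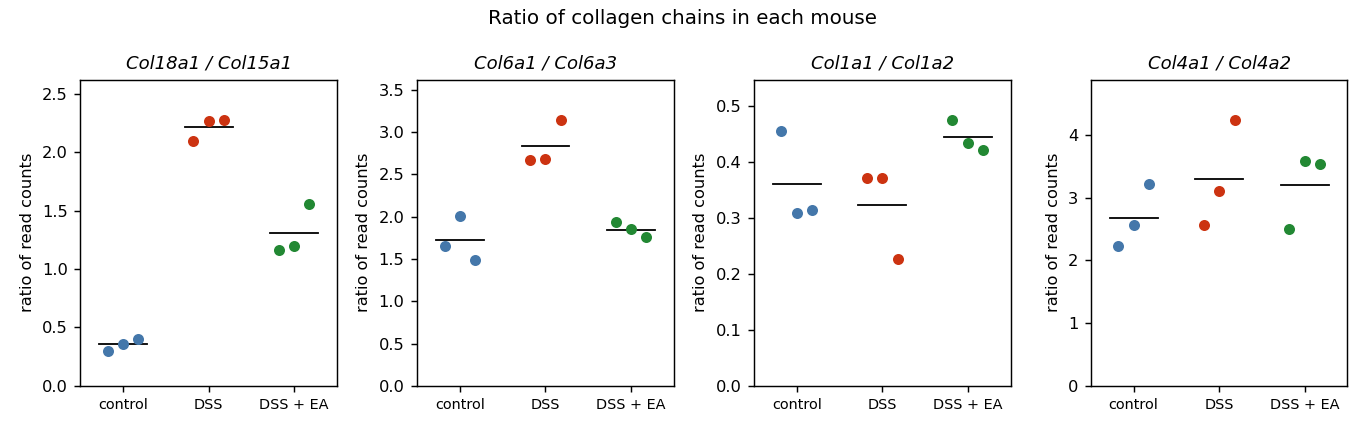
Ratio of read counts (vertical axis, from 0) between pairs of collagen chains in each mouse, 1 point per mouse and a line at the mean of 3. The DSS mice (2.10 to 2.28) lie above all others for Col18a1 to Col15a1, the DSS + EA mice (0.42 to 0.48) lie above the DSS mice (0.23 to 0.37) for Col1a1 to Col1a2, and all groups overlap for Col4a1 to Col4a2.

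The genes that fold and modify collagen chains in the cell had a median log2 fold change of 0.85 with DSS, beside 1.57 for the collagen genes, and of -0.26 between DSS + EA and DSS, beside -1.12. Of 18 such genes 14 were tested. With DSS 6 were higher and 0 lower, beside 21.5% and 19.5% of all genes tested. In DSS + EA mice 3 were lower and 0 higher than in DSS mice. None was called in DSS + EA against control, where 3.00% of all genes tested were higher and 0.637% lower. The 3 of 14 lower with EA lie near the 18.3% of all genes tested. Serpinh1, the collagen chaperone HSP47, rose with DSS by 0.92 (SE 0.20, adjusted p = 0.00537) from 55.3 ± 4.43 to 105 ± 18 CPM (SD, n = 3). In DSS + EA mice it was at 94.0 ± 16.7 CPM, a log2 fold change of -0.16 from DSS (SE 0.20, adjusted p = 0.555). P4hb, a subunit of prolyl 4-hydroxylase that also acts on other proteins, was not called in any comparison (with DSS -0.26, SE 0.23, adjusted p = 0.391). The lysyl hydroxylase gene Plod1 (1.78, SE 0.28, adjusted p = 0.000966) and the chaperone gene Fkbp10 (2.58, SE 0.40, adjusted p = 0.000995) had the smallest p with DSS. Fkbp10 and P3h3, a gene of the prolyl 3-hydroxylase family, were the called genes of this list with the smallest p in DSS + EA against DSS, at -1.62 (SE 0.38, adjusted p = 0.00977) and -1.88 (SE 0.47, adjusted p = 0.0128).

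The genes tested that trim and cross-link collagen outside the cell were also higher with DSS. For this list and those below, the shares of all genes tested are 21.5% higher with DSS and 18.3% lower with EA than with DSS. In DSS + EA against control, 3.00% were higher. Of 12 genes 6 were tested, all 6 were higher with DSS (median log2 fold change 2.69) and 5 were lower with EA than with DSS (median -2.02), with none called against control. Lox, the lysyl oxidase that starts cross-linking, had 7, 2 and 2 counts in control, 56, 144 and 62 in DSS and 20, 14 and 9 in DSS + EA mice. It rose by 4.30 (SE 0.46, adjusted p = 0.000147) and fell by 2.28 (SE 0.38, adjusted p = 0.0022). Loxl2, of the same family, rose by 2.74 (SE 0.32, adjusted p = 0.000237). Bmp1, the C-proteinase of procollagen, fell by 2.51 between DSS and DSS + EA (SE 0.38, adjusted p = 0.00137), and Adamts2, the N-proteinase, by 2.08 (SE 0.30, adjusted p = 0.00114).

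Of 12 genes of proteins that bind fibrils, 11 were tested, 9 rose with DSS and 9 fell between DSS and DSS + EA. The 2 sets differ: Lum rose but was not called lower with EA (adjusted p = 0.0715). Tnxb fell (adjusted p = 0.047) without a call with DSS (adjusted p = 0.699). Of the 11 genes 2, Dcn and Sparc, stayed higher than control with EA. Dcn, the proteoglycan decorin, rose from 282 ± 26.3 to 2421 ± 392 CPM (3.10, SE 0.20, adjusted p = 1.61e-05) and was at 583 ± 74.1 CPM in DSS + EA mice. Sparc rose from 155 ± 1.76 to 867 ± 25.6 CPM (2.49, SE 0.17, adjusted p = 1.83e-05) and was at 375 ± 51.0 CPM in DSS + EA mice. All 7 genes of collagen degradation and uptake were higher with DSS, 6 were lower with EA than with DSS, and 4 stayed higher than control (Mmp2, Mmp8, Mmp13 and Ctsk). The gelatinase gene Mmp2 was at 18.3 ± 1.83, 183 ± 12.1 and 45.2 ± 4.56 CPM in control, DSS and DSS + EA mice, with log2 fold changes of 3.32 with DSS (SE 0.18, adjusted p = 6.96e-06) and -2.02 with EA against DSS (SE 0.17, adjusted p = 0.000166). Ctsk, a collagen-cutting cathepsin, was at 10.9 ± 1.58, 157 ± 40.3 and 39.6 ± 9.67 CPM in the same groups.

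Of 13 laminin, nidogen and perlecan genes, which join type IV collagen in the basement membrane, 12 were tested. With DSS 10 were higher and 0 lower, and between DSS + EA and DSS 9 were lower and 1, Lama3, was higher (1.53, SE 0.51, adjusted p = 0.0421). Lama3 and Lamb3 are chains of the epithelial laminin. Lamb1 rose by 2.12 (SE 0.19, adjusted p = 6.17e-05) and Nid1, which links laminin to type IV collagen, by 2.35 (SE 0.26, adjusted p = 0.000182). Lamc1, the common gamma chain, fell by 2.15 between DSS and DSS + EA (SE 0.30, adjusted p = 0.000983). Among 6 tested of 9 collagen receptors, 3 were higher and 1 lower with DSS, beside 21.5% and 19.5% of all genes tested. The integrin gene Itga1 (1.51, SE 0.26, adjusted p = 0.00176) and the fibrillar collagen receptor gene Ddr2 (1.77, SE 0.40, adjusted p = 0.00635) rose, and Ddr1, a receptor of epithelial cells, fell by 1.04 (SE 0.37, adjusted p = 0.0483). Itga1 and Ddr2 were the 2 of 6 receptors lower with EA than with DSS, beside 18.3% of all genes tested, and so few genes say little about the receptors as a group.

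Of 7 genes of the TGF-beta signal, which drives collagen production in fibroblasts, 6 were tested, 5 rose with DSS and 4 fell between DSS and DSS + EA. Tgfbr2, a receptor, rose by 1.88 (SE 0.27, adjusted p = 0.000636). Ctgf, a target gene, was at 15.2 ± 1.81, 39.8 ± 27.5 and 4.39 ± 1.36 CPM in control, DSS and DSS + EA mice, and the DSS + EA mice lay below all others. Tgfb1, the ligand gene, had at most 11 counts in any mouse and was not tested.

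Markers of cell types moved with the groups, and their part in the collagen values was not tested. No marker of the lists was at 0 in all mice. Among all genes tested, 21.5% were higher with DSS and 18.3% were lower with EA than with DSS. Of 8 fibroblast markers 6 rose with DSS and 5 fell between DSS and DSS + EA, but their sum lay between 579 and 1160 CPM in DSS, 540 and 739 CPM in control and 411 and 430 CPM in DSS + EA mice, so that DSS and control mice overlapped. The most abundant of them in control mice, Gsn, was not called with DSS (-0.45, SE 0.31, adjusted p = 0.276). It held 398 to 608 CPM in control, 226 to 565 CPM in DSS and 246 to 277 CPM in DSS + EA mice. The overlap of the sums rests on Gsn. Without it every DSS mouse lies above every DSS + EA mouse, and every DSS + EA mouse above every control mouse. Pdgfra, a defining fibroblast receptor, rose by 2.26 (SE 0.22, adjusted p = 8.64e-05) and fell by 1.66 (SE 0.21, adjusted p = 0.000677). Of 8 endothelial markers 4 rose with DSS and 3 fell between DSS and DSS + EA, and their sum lay between 123 and 159 CPM in DSS mice against 58.9 to 79.3 CPM in all others. Pecam1, an endothelial adhesion gene, rose by 1.66 (SE 0.19, adjusted p = 0.000236) and fell by 1.55 (SE 0.19, adjusted p = 0.000651). All 8 leukocyte markers rose with DSS and 5 fell between DSS and DSS + EA, with sums between 222 and 257 CPM in control, 822 and 4952 CPM in DSS and 491 and 616 CPM in DSS + EA mice.

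Smooth muscle and epithelial markers went the other way with DSS, where 19.5% of all genes tested were lower. Of 8 smooth muscle markers 7 were tested, 6 were lower with DSS and 1, Cnn1, was higher with EA than with DSS (1.19, SE 0.27, adjusted p = 0.00861), and their sums were 2843 to 3543 CPM in control, 1144 to 2172 CPM in DSS and 2205 to 2272 CPM in DSS + EA mice. Of 8 epithelial markers 4 were lower with DSS and 2, Vil1 and Krt20, higher with EA than with DSS. Of all genes tested 17.2% were higher with EA than with DSS, and the 1 of 7 and 2 of 8 markers lie near that share. Their sums were 4496 to 5239 CPM in control, 720 to 3668 CPM in DSS and 3789 to 4551 CPM in DSS + EA mice. The epithelial sum was lowest and the leukocyte and fibroblast sums highest in DSS mouse 3, in which Col3a1 was also highest, while Col18a1, Col15a1 and Col5a1 were lowest of the DSS mice there. The fibroblast sum of that mouse was mostly Gsn (565 CPM) and Vim (409 CPM). Of the other fibroblast markers, Pdgfra, Fbn1, Thy1 and Fap were highest in DSS mouse 2, and Pdgfrb and Mfap5 in DSS mouse 3. Of the enteric glia markers, Gfap rose with DSS and fell between DSS and DSS + EA, and the defining gene Sox10 had at most 3 counts in any mouse. Of 10 pancreatic markers 2 (Cela1 and Clps) were lower with DSS and all 10 were higher with EA than with DSS. Of 4 tested adipocyte markers 1 was higher and 3 lower with DSS, and of 2 tested mesothelial markers 1 was higher.

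**Figure D4:**
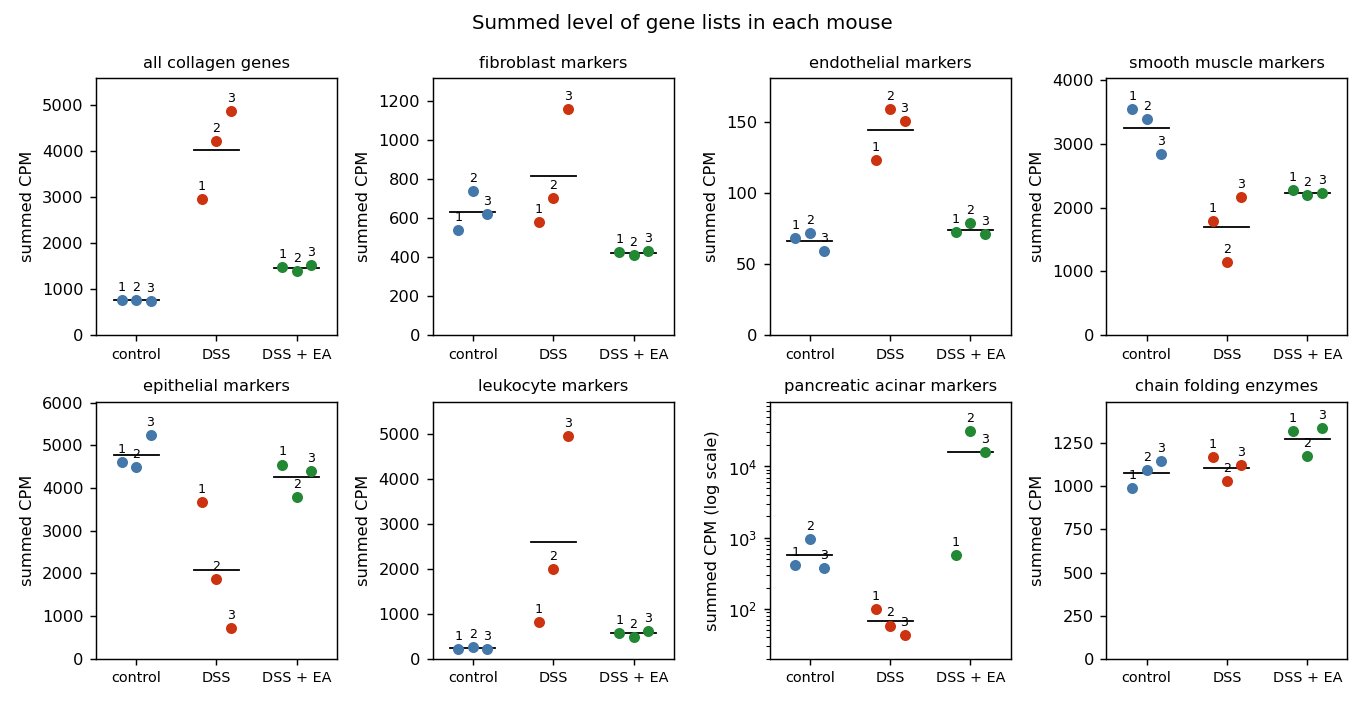
Summed CPM of the collagen genes, of 6 cell type marker lists and of the chain folding genes in each mouse (numbers are mouse numbers, lines are means of 3, and the axis of the pancreatic markers is on a log scale). Collagen sums were 744 to 772 CPM in control, 2952 to 4863 CPM in DSS and 1384 to 1527 CPM in DSS + EA mice, and the chain folding genes lay between 993 and 1336 CPM in all mice. Most of the chain folding sum came from P4hb and Ppib, at means of 426 and 462 of 1079 CPM in control mice. Neither was called in any comparison, so the sum says little about the 6 genes of that list called higher with DSS.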

How the data were processed

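Colon RNA of 9 mice was sequenced with the Oxford Nanopore cDNA-PCR protocol, 1 library per mouse. Values are raw counts of reads per gene, as deposited by the authors, with no normalization. The submitters' processing notes name mm10, and the aligner, the counting tool, the annotation and the use of strand are not given in the sources used here. Of the lines of the table, 14 held no counts and were skipped, and 5620 of 27719 genes had no count in any library. Library totals were 2627695 to 4235576 counts, and a floor of 3 counts covers counting error only, since PCR copies were not told apart. Columns were assigned to mice by the labels.

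The quasi-likelihood F test of edgeR 4.0.16 under R 4.3.3 was applied (TMM factors 0.939 to 1.095, filterByExpr by group, prior count 0.125) to all 9 libraries together, with group as the only term and without a replicate block. Standard errors are the log2 fold change divided by the square root of F. Adjustment was over all 12566 genes tested. Positions and lengths came from GENCODE M21 and promoters from RefSeq, with Python 3.11.15, pandas 2.3.3 and matplotlib 3.10.9. Same-numbered mice are different animals as far as the labels say, and their deviations from the group means correlated between -0.163 and 0.111.

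The collagen genes, the pathway and marker lists and the tests were chosen with earlier results of these data known. Values in every mouse are given for genes called in DSS against control or DSS + EA against DSS and for Col1a1, Col1a2, Col3a1, Col4a1, Col4a2, Col6a1, Col6a2 and Col6a3. Of each pathway list, up to 2 genes were chosen by smallest p, per direction, in both comparisons, together with Serpinh1, P4hb and Lox, and further genes were named after their values were seen. Alternatives were DESeq2 1.42.0, RLE factors, library totals, the unfiltered table, a stricter filter (mean of 20 counts), fits of 2 groups alone, the replicate block, a log2 fold change minimum of 1, each mouse left out, and, added after the values were seen, DSS + EA mice 2 and 3 left out. In simulated counts for the DSS against control comparison (12566 genes, of which edgeR tested 12180), edgeR recovered 100% of genes changed by 3 on the log2 scale and 63% of those changed by 1.5, with 7 unchanged genes called. The changed genes were drawn only from those of higher mean level. These rates therefore do not cover collagen genes of few counts, such as Col5a3, Col4a5 and Col23a1. Each simulated gene had the spread typical of its level, and 100 genes were changed by each amount, fewer than were called in the data. The rates can therefore look better than they are for genes that vary more between mice. The human samples and the other measurements of the study were not analysed here. Some genes of the lists are counted but not reported here by name.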

Additional observations from a re-analysis of the deposited data

How the results depend on the processing

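When single mice were left out, the count of collagen genes higher with DSS (17) stayed between 16 and 18, and the count lower with EA than with DSS (14) stayed between 12 and 15. Collagen genes lower with DSS and higher with EA than with DSS stayed at 0 except without DSS mouse 1, where each was 1 (range 0 to 1). The count higher in DSS + EA than in control mice (6) ranged from 2 to 7, and that lower was 0 throughout. Without DSS + EA mice 2 and 3, 4 genes were lower with EA than with DSS and 0 higher than control, with log2 fold changes of the lost calls at -1.93 to -1.05 and 0.92 to 1.74 and 1 mouse left in the group. Lowering the fold threshold of the study's methods from 2.5 to 1 on the log2 scale raised the number of collagen genes higher with DSS from 6 to 15 and lower with EA than with DSS from 0 to 12, as a smaller minimum must. The replicate block gave 16 higher with DSS, 13 lower with EA than with DSS and 5 higher than control, and it changed no other count, while the calls lost were those of Col23a1 with DSS, Col27a1 with EA against DSS and Col4a1 with EA against control. DSS + EA against control turned sign for Col16a1 without control mouse 2 (0.073, range over left-out mice -0.273 to 0.073) and for Col5a3 without control mouse 2 (0.117) or DSS + EA mouse 1 (0.065, range -0.191 to 0.117), and neither gene was called. RLE factors and library totals moved the median of all genes by less than 0.1. Between 3 mice and 3, changes of 1.5 on the log2 scale in genes of few counts can be missed, and most of the 23 genes not tested had under 10 counts in every mouse.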
